A study of Mus musculus with 10 samples.

Results

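Nodal, its antagonists Lefty1 and Lefty2, its coreceptor Tdgf1, the receptor Acvr1b, the signal transducers Smad2 and Smad3, the inhibitory Smad7 and the proprotein convertases Furin and Pcsk6 were examined in 10 mouse embryonic stem cell (ESC) lines. These 10 genes were taken by name, as genes of the Nodal pathway and the convertases that process Nodal. Each symbol was matched through its Ensembl gene identifier, with the row of the highest mean kept for a symbol, and all 10 were found among the 20206 genes of the table.

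Nodal is a secreted ligand of the TGF-beta family, made as a precursor that Furin and Pcsk6 cleave into its active form. With the coreceptor Tdgf1, also called Cripto, it binds receptors that include Acvr1b, which phosphorylate Smad2 and Smad3. These join Smad4 in the nucleus and act with partners such as Foxh1 on target genes, among them Nodal itself, Lefty1 and Lefty2. The Lefty proteins block Nodal and its coreceptor, and Smad7 blocks the receptors, so the pathway holds its own negative feedback. In the early embryo it acts in the epiblast, in mesendoderm formation and in left-right asymmetry, and cultured ESCs are known to express its ligand, its coreceptor and its antagonists.

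The lines came from E3.5 blastocysts of C57BL/6 females, 7 to 9 weeks old at mating, that were fed either a low protein diet (LPD, 9% casein) or an isocaloric normal protein diet (NPD, 18% casein) from mating until the embryos were collected. There were 5 LPD lines (1, 4, 6, 20 and 40) and 5 NPD lines (8, 15, 21, 36 and 51), each from a different mother, and all are described as wild-type and male. They were derived on embryonic fibroblast feeders with LIF and serum replacement, and RNA for sequencing was taken from cultures without fibroblasts. The values are estimated counts per gene that the authors normalized between lines, called normalized values here. Depth was read from what 1 read was worth in each line and is given in read equivalents. Depth in NPD lines ran from 20386314 (NPD 51) to 23179344 (NPD 21). LPD lines 1 and 20 were as deep, at 21888547 and 24138306, while LPD lines 6, 40 and 4 held 12341756, 11248020 and 5847178. Low genes were therefore measured less precisely in those LPD lines, and the member value resting on the fewest reads was that of Lefty2 in LPD 4, at 42.5 read equivalents.

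In both NPD 15 and LPD 4 the Y-linked gene Ddx3y went against the male label. Its normalized value was 7.70 in NPD 15 and 174 in LPD 4, and between 1110 and 1493 in the other 8 lines. The members and the lists that shifted most are also given without these lines. The ESC label itself was met by the markers. All 10 ESC markers examined were expressed in each line, with a summed value between 92909 in NPD 8 and 119657 in LPD 40, and none of the 10 had an unadjusted p under 0.05 between the diets in limma. Dppa5a was the most abundant of them.

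The diets were compared to ask whether a maternal diet limited to the time before implantation left a mark on the Nodal pathway of the derived lines. Over 14354 tested genes, those whose mean reached 10, limma called 0 (0%) at an adjusted p under 0.1, and 721 (5.02%) had an unadjusted p under 0.05. Those 721 divided into 408 higher in LPD (2.84%) and 313 lower in LPD (2.18%). After rescaling of all lines to a common total, 734 genes had an unadjusted p under 0.05, 295 higher and 439 lower. The diets did not overlap in 146 genes (1.02%). All 10 members passed the filter. Of the 10, 1 had an unadjusted p under 0.05, Smad2, which was higher in LPD, and 0 were without overlap between the diets. That is near the share found over all genes. The median log2 fold change of the members, LPD against NPD, was 0.00, as was the median over all genes tested, with 5 members higher and 5 lower. The count of genes at an adjusted p under 0.1 rose to 40 without LPD 40, and to 1 without LPD 1, LPD 20 or NPD 8, with no member among the called genes in limma.

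**Figure D1:**
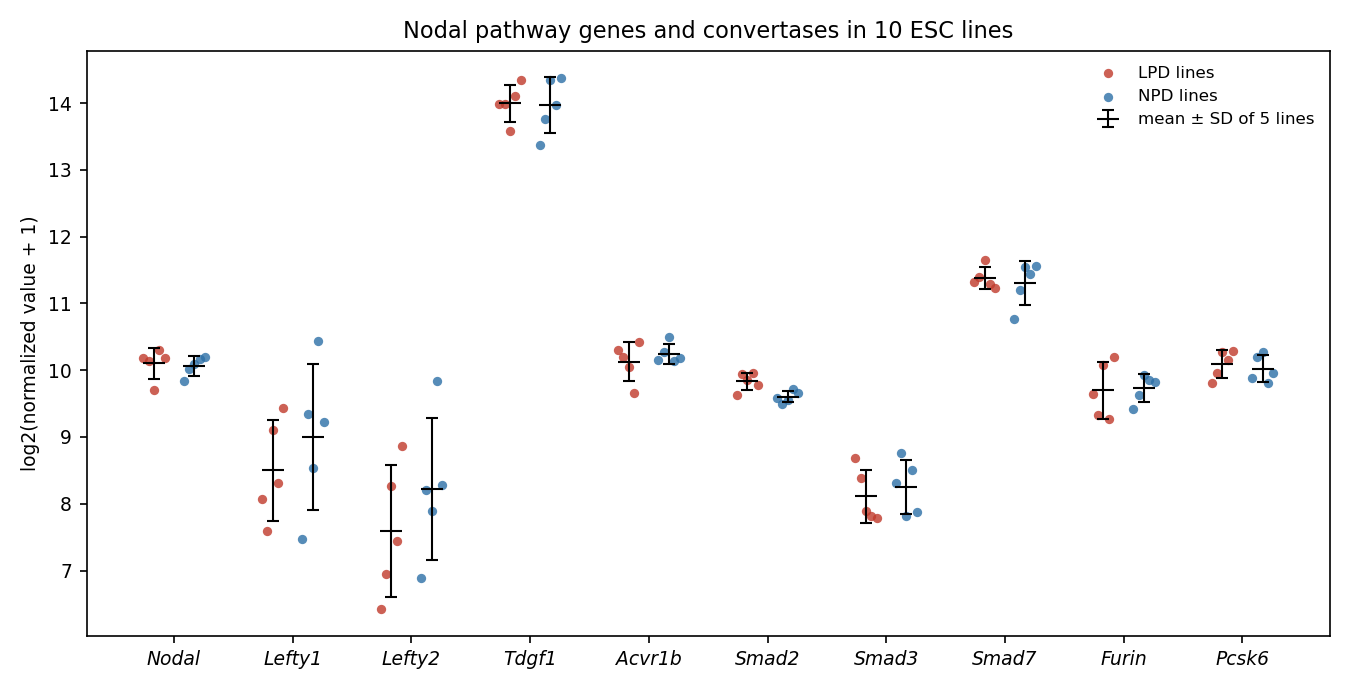
Log2(normalized value + 1) of the 10 genes (vertical axis) in each LPD line and NPD line, where each point is 1 line and bars are the mean ± SD of the 5 lines of a diet. Lefty1 and Lefty2 spread widest within each diet, and Smad2 is the gene with 4 of 5 LPD lines above all NPD lines.

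Nodal (chr10:61417972-61425338, plus strand, GRCm38) was expressed at much the same level in all lines. Its normalized value was 1166, 1127, 836, 1264 and 1162 in LPD lines 1, 4, 6, 20 and 40, and 913, 1037, 1090, 1152 and 1176 in NPD lines 8, 15, 21, 36 and 51. LPD 6 and NPD 8 held the lowest values of their diets, and the diets overlapped. The means were 1111 ± 162 in LPD and 1074 ± 105 in NPD (SD, n = 5 each). The log2 fold change was 0.04 (SE 0.12, 95% confidence interval −0.22 to 0.30; exact permutation p = 0.722), so a change larger than about these bounds is not compatible with the interval. Within a diet, the SD of Nodal between lines lay at percentile 30.4 of all genes tested.

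Among the receptors, the coreceptor Tdgf1 was by far the most abundant member. Its normalized value was 16309, 16169, 12226, 17563 and 20811 in LPD lines 1, 4, 6, 20 and 40, and 10628, 13956, 20922, 16071 and 21153 in NPD lines 8, 15, 21, 36 and 51. As with Nodal, LPD 6 and NPD 8 were lowest in their diets. Means were 16616 ± 3085 in LPD and 16546 ± 4537 in NPD (SD, n = 5 each), with a log2 fold change of 0.03 (SE 0.19, exact permutation p = 0.944). Tdgf1 has processed copies elsewhere in the genome. Of its 2646 stretches of 31 bases, 330 are also in Tdgf1-ps1 and 25 in Tdgf1-ps2, but Tdgf1-ps1 was listed at no more than 1.52 in any line. Acvr1b, the type I receptor that carries the Nodal signal, ranged from 811 in LPD 20 to 1445 in NPD 21, with a log2 fold change of −0.12 (SE 0.13, exact permutation p = 0.476), which ran from −0.20 without LPD 40 to −0.0089 without LPD 20.

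Smad2, which carries the signal from the receptor to the nucleus, was the 1 member with a difference between the diets at an unadjusted p under 0.05. It was 793, 979, 921, 996 and 878 in LPD lines 1, 4, 6, 20 and 40, and 763, 724, 754, 838 and 804 in NPD lines 8, 15, 21, 36 and 51. LPD lines 4, 6, 20 and 40 lay above all NPD lines, and LPD 1 lay among them. The means were 913 ± 81.9 in LPD and 777 ± 44.9 in NPD (SD, n = 5 each). The log2 fold change was 0.23 (SE 0.09, 95% confidence interval 0.03 to 0.43; exact permutation p = 0.0238), and limma gave an unadjusted p of 0.0248 and an adjusted p of 0.952, so that Smad2 did not pass adjustment over all genes. Smad2 varied little, with an SD within diets at percentile 5.35 of all genes tested. Without LPD 4 and NPD 15 its log2 fold change was 0.18 and limma's unadjusted p was 0.118, and with depth added to the fit these were 0.19 and 0.118. The part of depth in the difference was not tested further.

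Smad3, the partner of Smad2, showed no such difference. It ranged from 219 in LPD 40 to 433 in NPD 15, with a log2 fold change of −0.15 (SE 0.22, exact permutation p = 0.548), which ran from −0.29 without LPD 1 to −0.019 without NPD 15 and was −0.086 without LPD 4 and NPD 15. Smad7, an inhibitory Smad that is itself induced by signals of the family, ranged from 1744 in NPD 8 to 3230 in LPD 6, with a log2 fold change of 0.08 (SE 0.15, exact permutation p = 0.722). The log2 fold change without LPD 4 and NPD 15 was 0.02 for Nodal, −0.013 for Tdgf1, −0.13 for Acvr1b, 0.04 for Smad7, 0.04 for Furin and 0.15 for Pcsk6. In a population of cells, more RNA of a gene per cell and more cells that express it cannot be told apart in these data.

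Lefty1 and Lefty2, the secreted antagonists, differed between lines far more than any other member. Lefty1 (chr1:180935022-180938400, plus strand, GRCm38) was 267, 192, 548, 317 and 690 in LPD lines 1, 4, 6, 20 and 40, and 177, 647, 370, 1381 and 596 in NPD lines 8, 15, 21, 36 and 51. Lefty2 (chr1:180893108-180899103, plus strand) was 84.8, 122, 307, 172 and 465 in the LPD lines and 118, 296, 236, 916 and 310 in the NPD lines, in the same order. NPD 36 was highest for both genes and NPD 8 was among the lowest for both, so that 1 diet held both extremes of Lefty1. From the lowest to the highest line the values differed 7.81-fold for Lefty1 and 10.8-fold for Lefty2, against 1.51-fold for Nodal. The SD within diets lay at percentile 94.4 of all genes tested for Lefty1 and at 95.6 for Lefty2.

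Between the diets the difference of the Lefty genes was smaller than this spread. Lefty1 had means of 403 ± 208 in LPD and 634 ± 458 in NPD (SD, n = 5 each), and a log2 fold change of −0.50 (SE 0.48, 95% confidence interval −1.54 to 0.54; exact permutation p = 0.397). Lefty2 had means of 230 ± 156 and 375 ± 312 (SD, n = 5 each), and a log2 fold change of −0.63 (SE 0.53, 95% confidence interval −1.77 to 0.50; exact permutation p = 0.373). The intervals are wide, and a sizeable difference in either gene was not detectable with lines this variable. The fold changes leaned on single lines in both directions. They were −0.14 and −0.23 without NPD 36, −0.88 and −0.97 without NPD 8 (unadjusted p of 0.0533 and 0.0785 in limma), and −0.73 and −0.95 without LPD 40. Without LPD 4 and NPD 15 they were −0.19 and −0.48.

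Lefty1 and Lefty2 rose and fell together over the lines. Of the 45 pairs of members, theirs was the 1 pair that passed adjustment over the pairs, with Pearson's r of 0.945 (permutation p = 1.1e-04, adjusted p = 0.00495) and Spearman's rho of 0.927 (permutation p = 3.8e-04, adjusted p = 0.0171). Without NPD 36 and NPD 8, the lines farthest from the median of Lefty1, r was 0.904 and the adjusted permutation p was 0.0859, and without NPD 36 alone r was 0.906 with an adjusted permutation p of 0.0621, so the size of r held while its passing the adjustment rested on NPD 36. Without LPD 4 and NPD 15 r was 0.951 (adjusted permutation p = 0.0310). On deviations from the diet means it was 0.941. For each 100 units of Lefty1 there were between 31.8 units of Lefty2, in LPD 1, and 67.3, in LPD 40.

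No correlation of Nodal with its antagonists was detected over the 10 lines, which are too few to exclude one. The r of Nodal was 0.12 with Lefty1 (permutation p = 0.736, rho 0.115 with permutation p = 0.761) and 0.053 with Lefty2 (permutation p = 0.882, rho 0.055 with permutation p = 0.891), and both were below 0 without LPD 6 and NPD 8, at −0.14 and −0.12. The sum of Lefty1 and Lefty2 for each 100 units of Nodal ran from 27.9 in LPD 4 to 199 in NPD 36. Nodal and Tdgf1 had an r of 0.774 (permutation p = 0.0082, adjusted p = 0.184; rho 0.721, permutation p = 0.0235), which did not pass adjustment and fell to 0.338 without LPD 6 and NPD 8, so it rested on those lines. Furin had an r of 0.663 with Lefty1 (permutation p = 0.0372, adjusted p = 0.458; rho 0.624, permutation p = 0.0600) and of 0.649 with Lefty2 (permutation p = 0.0427, adjusted p = 0.458; rho 0.648, permutation p = 0.0494), neither of which passed adjustment. They were 0.708 without NPD 36 and NPD 8, and 0.862 without LPD 1 and NPD 36.

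**Figure D2:**
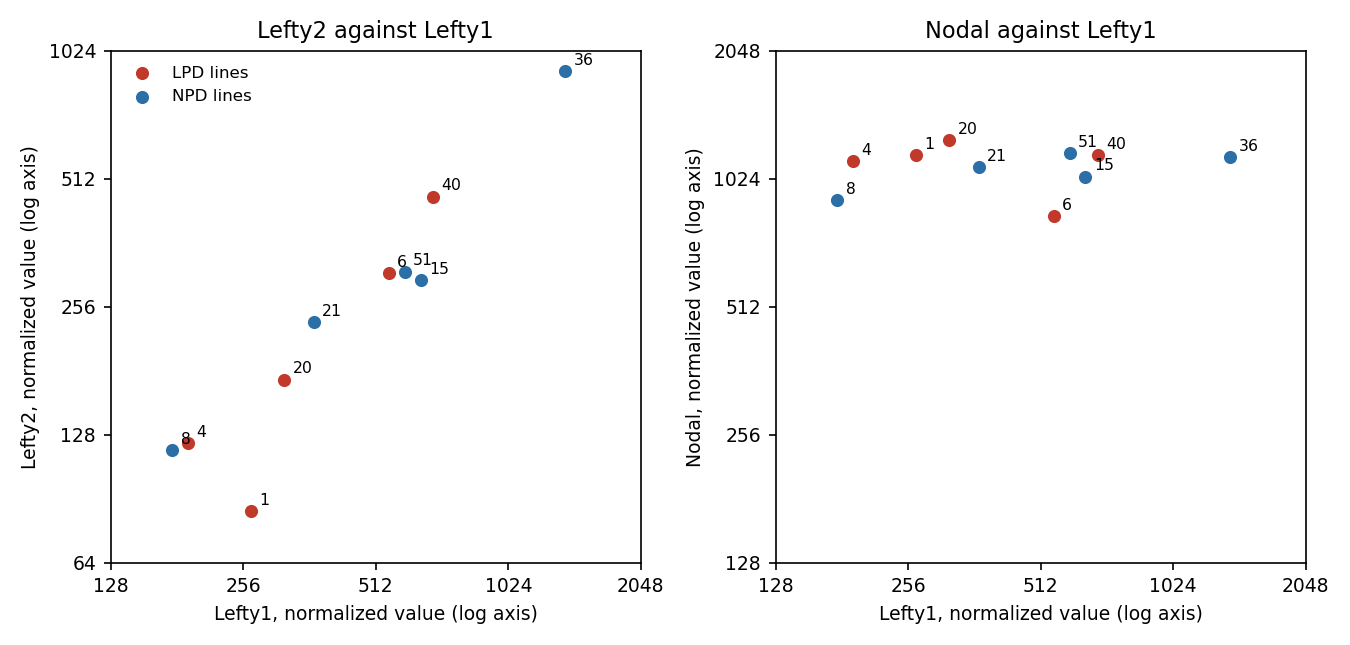
Normalized values of Lefty2 (left) and Nodal (right) against Lefty1 in the 10 lines, on log axes, with each point 1 line labelled by its number. Lefty2 follows Lefty1 with r = 0.945, whereas Nodal stays between 836 and 1264 while Lefty1 runs from 177 to 1381.

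The Lefty genes are near-identical neighbours, so reads can be shared between them, and their coding sequences were compared to show how far. Each coding sequence is 1107 bases with the stop codon, and 1020 of 1105 aligned bases (92.3%) are identical. Of the 1726 different stretches of 31 bases in Lefty1 transcripts, 443 (25.7%) also occur in Lefty2 transcripts, and a read that lies wholly in such stretches is assigned by estimation. The 60 coding bases that differ most, coding bases 34 to 93 in exon 1 (Lefty1 chr1:180935143-180935202, Lefty2 chr1:180893217-180893276, plus strand, GRCm38), hold 18 differences, in capitals.
Lefty1: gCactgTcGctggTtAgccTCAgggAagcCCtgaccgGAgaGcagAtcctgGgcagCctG
Lefty2: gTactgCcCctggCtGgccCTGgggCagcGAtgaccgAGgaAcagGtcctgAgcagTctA
The split of reads between the Lefty genes is thus less certain than their sum. Summed into 1 gene, an alternative chosen after seeing the data, they had a log2 fold change of −0.54 (SE 0.49, exact permutation p = 0.397) and differed 7.79-fold from the lowest line to the highest.

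Among 10445 genes with a mean of 100 or more, the genes most like Nodal over the 10 lines were Cphx3 (0.962), Tomm5 (0.959) and Tipin (0.956), on chromosomes 14, 4 and 9. Cphx3 was 25.0 in LPD 6 and 53.8 in NPD 8, and between 172 and 583 in the other lines, so this likeness includes the same lines of low Nodal.

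The convertases that cleave the Nodal precursor were measured per gene. Furin ranged from 614 in LPD 20 to 1170 in LPD 40, with all NPD lines between 680 and 969, and had a log2 fold change of −0.03 (SE 0.18, exact permutation p = 0.921). Pcsk6 ranged from 893 in LPD 1 to 1245 in LPD 40, with a log2 fold change of 0.07 (SE 0.12, exact permutation p = 0.556). Single transcripts of either gene were not analysed here. Of 7 other convertases, 6 were tested, 0 had an unadjusted p under 0.05 in limma, and the median log2 fold change was −0.04. Mbtps1, which cleaves membrane-bound transcription factors, was the most abundant of these by normalized value, between 3166 and 3792.

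Per kilobase of the longest coding transcript, mean levels over the 10 lines were ordered Tdgf1 (8582), Smad7 (613), Nodal (521), Lefty1 (320), Acvr1b (266), Pcsk6 (244), Furin (198), Lefty2 (122), Smad2 (104) and Smad3 (58.8). Tdgf1 was above Smad7, and Smad2 above Smad3, in all 10 lines. Neighbours that did not separate were Lefty1 and Acvr1b, and Lefty2 and Smad2, where the gene with the higher mean was above the next in 6 of 10 lines. Lefty1 ran from 109 to 852 per kilobase and Lefty2 from 34.3 to 370, and so spanned the levels of several others.

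Other genes of the pathway were taken from lists of ligands, receptors, Smads and partners, inhibitors, convertases, target genes, mesendoderm genes and TGF-beta ligands. Of 59 such genes, 58 were in the table and 51 were tested. At an unadjusted p under 0.05 in limma 2 were higher and 1 lower in LPD, 0 passed an adjusted p under 0.1, and the median log2 fold change was 0.04. Over all genes tested 2.84% were higher and 2.18% lower at that p, with a median of 0.00.

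The 5 other Nodal and activin ligands all had a log2 fold change below 0, with a median of −0.51, though Gdf3 was near 0 and the unlogged mean of Inhba was higher in LPD (167 against 26.3). Without LPD 4 and NPD 15, 2 were above 0 and 3 below, with a median of −0.16. Of these, 1 had an unadjusted p under 0.05, Inhbb, the beta-B subunit of activin and inhibin. It was 543, 781, 1468, 588 and 793 in LPD lines 1, 4, 6, 20 and 40, and 872, 1171, 1360, 998 and 1211 in NPD lines 8, 15, 21, 36 and 51. LPD 6 was the highest of all lines and the other LPD lines lay below all NPD lines. The log2 fold change was −0.51 (SE 0.23, exact permutation p = 0.0952), with an adjusted p of 0.987 in limma. Without LPD 6 it was −0.73, with an adjusted p of 0.563 in limma, and without LPD 4 and NPD 15 it was −0.49, with an unadjusted p of 0.109 in limma. With 1 line left out, the unadjusted p was above 0.05 in 8 of 10 cases, at most 0.126, and below it without LPD 6 or NPD 8 only. Inhba, the beta-A subunit, was 823 in LPD 6 and at most 76.2 in any other line. Gdf3, a ligand related to Nodal, had a log2 fold change of 0.00 and was between 1439 and 2306.

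Of the receptors and coreceptors outside the members, 5 of 7 were tested and 0 had an unadjusted p under 0.05 in limma, with a median log2 fold change of 0.07. Acvr2b, a type II receptor for Nodal, was between 295 and 492. Of the Smads and partners 5 of 6 were tested and 0 had an unadjusted p under 0.05, with a median of −0.02. Foxh1, the partner of Smad2 at Nodal target genes, was between 437 in NPD 21 and 894 in LPD 20.

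Of 15 other inhibitors, 14 were tested, 1 was higher and 0 lower in LPD at an unadjusted p under 0.05, and the median log2 fold change was 0.09. The 1 was Fst, follistatin, which binds activins. It was 139, 122, 125, 64.6 and 87.6 in LPD lines 1, 4, 6, 20 and 40, and 65.2, 54.5, 67.9, 50.1 and 46.8 in NPD lines 8, 15, 21, 36 and 51. LPD lines 1, 4, 6 and 40 lay above all NPD lines. The log2 fold change was 0.87 (SE 0.24, exact permutation p = 0.0238), with an adjusted p of 0.573 in limma, and it was 0.80 without LPD 4 and NPD 15. Cer1, a secreted Nodal antagonist of the endoderm, did not exceed 2.88 in any line.

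Of 9 other target genes of Smad2 and Smad3, all were tested, 1 was higher and 0 lower in LPD at an unadjusted p under 0.05, with a median log2 fold change of 0.18. The 1 was Ccn2, a matricellular protein gene that many signals induce besides those of the TGF-beta family. It was 3635, 3503, 3045, 2673 and 702 in LPD lines 1, 4, 6, 20 and 40, and 749, 701, 612, 862 and 968 in NPD lines 8, 15, 21, 36 and 51. LPD 40 lay among the NPD lines and the other LPD lines were far above them. The log2 fold change was 1.62 (SE 0.37, exact permutation p = 0.0317), with an adjusted p of 0.435 in limma. Without LPD 40, the LPD line that went against the difference, it was 2.05, with an adjusted p of 1.3e-04 in limma. With any other single line left out, the adjusted p in limma lay between 0.636 (without LPD 1) and 0.952 (without NPD 36). Without LPD 4 and NPD 15 the log2 fold change was 1.44, with an adjusted p of 0.998 in limma.

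LPD 6 stood apart in another target gene, Tagln, which was 5814 in LPD 6 and at most 2066 in the other lines. In the same line the summed fibroblast markers were 3414, below NPD 15 alone, and the summed trophectoderm markers were 10414, the highest of all lines. Krt8 (4577), Krt18 (3053) and Gata3 (265) were highest in LPD 6, and the other 5 markers on the list were not. The part of other cells in its values was not tested.

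Of 10 mesendoderm genes, 5 were tested, 0 had an unadjusted p under 0.05 in limma, and the median log2 fold change was 0.11. Mixl1 was at most 10.1, T at most 12.8 and Lhx1 at most 14.8 in any line. Eomes was between 245 and 412. Of 5 TGF-beta ligands and binding proteins, all were tested and 0 had an unadjusted p under 0.05, with 3 above 0, 2 below and a median of 0.09. Leaving out LPD 4 and NPD 15, 1 mesendoderm gene was lower in LPD at an unadjusted p under 0.05 in limma, and all 5 TGF-beta genes were above 0, with a median of 0.15.

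Markers of other cells moved between lines, and their part in the values of the members was not tested. Of 12 fibroblast markers 9 were tested, with 1 higher and 8 lower in LPD and a median log2 fold change of −0.88, and 0 had an unadjusted p under 0.05 in limma. With LPD 4 and NPD 15 left out, 8 were tested, 3 higher and 5 lower, with a median of −0.18. Col1a1 was the most abundant. Their summed value was 442, 673, 3414, 359 and 342 in LPD lines 1, 4, 6, 20 and 40, and 2133, 6138, 436, 1141 and 459 in NPD lines 8, 15, 21, 36 and 51. Of the 12, 5 were at 0 in at least 1 line and 0 were at 0 in all lines. NPD 36 and LPD 40, the lines with the highest Lefty1, stood in the middle of the NPD lines and lowest of all lines in this sum. NPD 15, with the highest sum, had a Lefty1 value of 647, near the 690 of LPD 40.

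All 10 primitive endoderm markers had a log2 fold change above 0, with a median of 0.51, and 0 had an unadjusted p under 0.05 in limma. With LPD 4 and NPD 15 both left out, 5 were above 0 and 5 below, with a median of −0.046. Neither line was left out alone for this list. Col4a1 was the most abundant. The summed value was 24485, 14585, 3597, 10014 and 17408 in LPD lines 1, 4, 6, 20 and 40, and 5876, 2289, 12949, 18762 and 11673 in NPD lines 8, 15, 21, 36 and 51. LPD 1, with the highest sum, was low in Lefty2, and NPD 36, with the next highest, was highest in both Lefty genes. LPD 40, at 17408, held 690 of Lefty1 and 465 of Lefty2, while NPD 15, with the lowest sum, held 647 and 296. Of 8 trophectoderm markers 7 were tested, with a median of 0.21 and 0 at an unadjusted p under 0.05. Tfap2c was the most abundant, and the sum ran from 3135 in NPD 51 to 10414 in LPD 6.

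Of 7 markers of the formative and primed epiblast, the state in which Nodal signalling is well known, 6 were tested and all 6 had a log2 fold change below 0, with a median of −0.31. At an unadjusted p under 0.05 in limma 2 were lower, against 2.18% of all genes. Otx2 had a log2 fold change of −0.85 (SE 0.35, exact permutation p = 0.0714; adjusted p of 0.952 in limma) and Sall2 of −0.79 (SE 0.33, exact permutation p = 0.0714; adjusted p of 0.952 in limma). Without LPD 4 and NPD 15 they were −0.79 and −0.73, with unadjusted p of 0.0771 and 0.0884 in limma, so that 0 of the 6 had an unadjusted p under 0.05, and 1 of the 6 was above 0. With depth in the fit the log2 fold changes were −0.93 and −0.72, and limma gave unadjusted p of 0.0584 and 0.105. Dnmt3b was the most abundant, and the sum ran from 2706 in LPD 6 to 5028 in NPD 36.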

How the data were processed

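RNA was sequenced from 5 LPD and 5 NPD lines, 1 library each. The authors used cutadapt to trim adaptors, discarded low-quality reads and ran Salmon against GRCm38 release 88 transcripts. What the authors deposited is a signal for every gene in every line, estimated counts normalized by DESeq2 going by the table's name. The step from transcripts to genes is not given in the sources used here. Columns without a mapped line numbered 0.

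The value of 1 read in a line was estimated from low values of 4269 genes with 1 annotated transcript, at least 91.6% of which were whole multiples in each line within a tolerance of 0.15. Over all genes at most 72.7% were, so no count model was used. Positions and transcripts came from GENCODE M21, which matched 19891 of 20206 genes.

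Values were taken as log2(value + 1), and genes with a mean of at least 10 went into limma 3.58.1 under R 4.3.3 (mean-variance trend, no covariate, Benjamini-Hochberg adjustment), a script tested on simulated data. Fold changes on this scale understate those of low genes. Members and named genes were also tested by two-sided exact permutation of the lines, whose smallest possible p is 0.00794. Pairs of members were correlated with 100000 permutations and adjustment over 45 pairs. Python 3.11.15 with numpy 2.4.6, scipy 1.17.1, pandas 2.3.3, Biopython 1.88 and matplotlib 3.10.9 was used for the rest.

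The genes named are the 10 members, the genes of 13 further lists, Ddx3y, the Tdgf1 copies Tdgf1-ps1 and Tdgf1-ps2, and for Nodal the 3 genes of highest Pearson's r among those with a mean of at least 100. Members and lists were chosen with earlier results of these data known. Alternatives were pseudocounts of 0.5 and 10, no filter or a mean cutoff of 100, a common total for all lines, quantile normalization, array weights or no trend in limma, depth as a covariate, and lines left out. Summing Lefty1 and Lefty2, leaving single lines or LPD 4 and NPD 15 out of the correlations, and leaving those 2 lines out of the lists were chosen after seeing the data.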

Additional observations from a re-analysis of the deposited data

Results flagged for a closer look

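In 15 genes (the 10 members and the 5 list genes at an unadjusted p under 0.05), each diet was searched for a line far from the other 4, with a gap above 0.71 of the range of the diet. The search used unlogged normalized values, unlike the tests above. Of 30 groups of 5 lines 2 had such a line. Chance gives about 1 in 20 only if the values are normally distributed, which was not tested. High values lie closer to the rest on the log2 scale, on which the search was not run, so both flags may depend on the scale. Lefty2 was 916 in NPD 36, where the next NPD line held 310 and the lowest 118, a gap of 0.760 of the range. Inhbb was 1468 in LPD 6, where the next LPD line held 793 and the lowest 543, a gap of 0.730 of the range.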

How the results depend on the processing

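Of 341 values recomputed under the alternatives, 300 were labelled the same. For a fold change or an r this means the same sign and side of the threshold at any size, as for Lefty1 at −0.14 without NPD 36 (−0.50 as reported) or the r of Nodal and Tdgf1 at 0.338 without the 2 farthest lines (0.774). For counts it means a ratio within 1.5, and for the members' median a shift under 0.17, sign changes included. Genes at an adjusted p under 0.1 in limma, 0 as reported with 721 at an unadjusted p under 0.05, numbered 1 with array weights and 0 to 40 with a line left out, with 40 reached without LPD 40. Genes at an unadjusted p under 0.05 numbered 573 to 1021 over the other alternatives and 549 to 904 with a line left out. Without a filter they divided into 472 higher and 549 lower in LPD. Members at an unadjusted p under 0.05, 1 as reported, numbered 0 with depth as a covariate and 0 without LPD 4 and NPD 15, and 0 to 1 with a line left out. The 1 was Smad2, which missed that p without LPD 4, LPD 20, NPD 15 or NPD 21, where limma's unadjusted p was at most 0.0587. Its log2 fold change stayed between 0.18 and 0.28. The median log2 fold change of the members was −0.032 on rescaling and ran from −0.11 to 0.03 with a line left out. The causes of these shifts were not tested.

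The r of Lefty1 and Lefty2 ran from 0.906 to 0.978 with a line left out, and was 0.904 without the 2 lines farthest from the median, with adjustment over 45 pairs not passed there or without NPD 36.

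Members near a log2 fold change of 0 changed sign. Tdgf1 (0.032 as reported) was −0.0023 on rescaling, −0.017 with quantile normalization, −0.049 with array weights, −0.013 without LPD 4 and NPD 15, and −0.12 to 0.14 with a line left out. Furin (−0.027) was 0.042 without LPD 4 and NPD 15 and −0.15 to 0.082 with a line left out. Smad3 (−0.15) was 0.014 with array weights. Nodal ran from −0.015 to 0.14 and Smad7 from −0.056 to 0.14 with a line left out. The r of Nodal was −0.14 with Lefty1 and −0.12 with Lefty2 without the 2 farthest lines, and −0.15 to 0.32 and −0.14 to 0.21 with a line left out. The cause was not tested.

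Depth limits low genes in LPD 4, in which a single read counted for 2.88 and 2965 genes had a value of 0, compared with 1330 at most in an NPD line. With 5 lines a diet, a difference near the SD of Lefty1 within diets, 0.94 in log2, could not be resolved.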
